A study of Mus musculus with 48 samples.

Results

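Transcripts of 6 genes of vitamin D, Klotho and parathyroid hormone signalling were followed in cultured mouse kidney slices: Cyp27b1, Cyp24a1, Vdr, Kl, Fgfr1 and Pth1r. They were taken by symbol, through their Ensembl identifiers, from a table of 55487 genes, and all 6 had a row and passed the filter on low counts in every comparison. The study measured RNA in 48 libraries of slices from males of C57BL/6J and DBA/2J, a pair of inbred strains, with 3 libraries for each of 16 groups. Within each strain the groups were untreated control slices at 6 h and 24 h, slices given tunicamycin (an inhibitor of N-linked glycosylation) for 6 h or 24 h, and slices given cyclosporin A (a calcineurin inhibitor) for 6 h or 24 h. The remaining 2 groups of each strain were normoxia, which the labels call an ischemia model, and normoxia-hyperoxia, which they call a reperfusion model, both titled 24 h. The labels give neither age nor drug dose, nor how much oxygen the controls received or when oxygen was switched. The labels name no engineered allele, and every slice, controls included, was cultured ex vivo.

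Vitamin D becomes a hormone in the kidney, where the mitochondrial enzyme encoded by Cyp27b1 adds the activating hydroxyl group and the one encoded by Cyp24a1 starts its breakdown. The active hormone binds the nuclear receptor encoded by Vdr, and Cyp24a1 is the classical gene that this receptor turns on. Parathyroid hormone, acting through the receptor encoded by Pth1r, raises Cyp27b1 and lowers Cyp24a1 and phosphate uptake in the proximal tubule. The bone hormone FGF23, acting through a receptor such as the one encoded by Fgfr1 together with the co-receptor alpha-Klotho (Kl), lowers Cyp27b1, raises Cyp24a1 and also lowers phosphate uptake. In the kidney Cyp27b1, Cyp24a1 and Pth1r are known chiefly from the proximal tubule, and Kl is most abundant in the distal convoluted tubule.

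On GRCm38, in the GENCODE M21 annotation, Cyp27b1 (ENSMUSG00000006724) lay at chr10:127048250-127053006 and Cyp24a1 (ENSMUSG00000038567) at chr2:170482708-170497145. Vdr (ENSMUSG00000022479) lay at chr15:97854425-97910630 and Kl (ENSMUSG00000058488) at chr5:150952607-150993817. Fgfr1 (ENSMUSG00000031565) lay at chr8:25513654-25575718 and Pth1r (ENSMUSG00000032492) at chr9:110722085-110747145. The merged exon length was 2.57 kb for Cyp27b1, 3.56 kb for Cyp24a1, 5.65 kb for Vdr, 9.33 kb for Kl, 9.88 kb for Fgfr1 and 2.92 kb for Pth1r. Exons of 3 of the genes overlapped a gene on the other strand: 83 bases of Cyp24a1 with Pfdn4, 164 bases of Fgfr1 with Gm16159 and 95 bases of Pth1r with Myl3. Whether the counting used strand is not given in the sources used here.

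The start-site windows of 3 of the genes are shown, that of the activating enzyme and those of the 2 genes whose levels moved most alike. Whether their letters bear on the levels was not tested. Each window runs from 250 bases before to 50 bases after the RefSeq start on GRCm38.p6, read on the gene's own strand, and RefSeq windows were matched for 4 of the 6 genes. Capitals mark TATANA and CCAAT (as ATTGG, on the other strand) in Cyp27b1, and GGGCGG or its reverse complement CCGCCC in Vdr and Kl.
Cyp27b1, chr10:127047996-127048295, plus strand: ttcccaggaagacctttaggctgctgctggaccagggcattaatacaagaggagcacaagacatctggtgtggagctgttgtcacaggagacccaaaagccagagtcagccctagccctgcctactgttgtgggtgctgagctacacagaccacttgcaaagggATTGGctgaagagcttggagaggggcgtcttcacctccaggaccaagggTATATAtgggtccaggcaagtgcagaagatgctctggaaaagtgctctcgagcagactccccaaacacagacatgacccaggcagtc
Vdr, chr15:97908247-97908546, minus strand: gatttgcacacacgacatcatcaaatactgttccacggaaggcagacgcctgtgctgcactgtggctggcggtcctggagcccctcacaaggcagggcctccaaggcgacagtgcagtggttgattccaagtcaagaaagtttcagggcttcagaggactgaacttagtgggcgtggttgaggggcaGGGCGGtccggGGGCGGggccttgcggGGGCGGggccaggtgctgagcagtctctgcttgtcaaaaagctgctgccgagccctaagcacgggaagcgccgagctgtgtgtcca
Kl, chr5:150952357-150952656, plus strand: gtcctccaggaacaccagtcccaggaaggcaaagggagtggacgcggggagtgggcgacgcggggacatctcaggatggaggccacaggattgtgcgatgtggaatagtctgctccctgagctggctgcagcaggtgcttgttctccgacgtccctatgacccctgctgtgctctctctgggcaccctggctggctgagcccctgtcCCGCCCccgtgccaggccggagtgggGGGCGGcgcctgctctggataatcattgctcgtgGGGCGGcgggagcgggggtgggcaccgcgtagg

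The Cyp27b1 window held 1 TATANA match at -37 and 1 CCAAT match at -86, counted from the start, and no GGGCGG. The Vdr and Kl windows each held 3 GGGCGG matches and neither of the other 2 motifs. Of the 3 RefSeq windows of Pth1r, 1 held 4 GGGCGG matches, another held 1, and the third held none and 1 CCAAT match. G and C made up 54.3% of the Cyp27b1 window, 61.3% of that of Vdr and 67.3% of that of Kl, beside a median of 52.7% over 32851 mouse windows. On either strand, TATANA was present in 24.7%, CCAAT in 37.4% and GGGCGG in 35.7% of those windows, so each match is a common one. TGACGTCA (1.79% of windows), TGANTCA (7.81%), CACGTG (7.15%), ACGTG, which CACGTG contains (19.6%), and the direct-repeat vitamin D response element (0.0396%) had no match in the 3 windows printed or in the 3 RefSeq windows of Pth1r. The Vdr window lies inside the gene's M21 span, at a start downstream of its outermost one.

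Total counts ranged from 5619309 to 25137581 per library. The lowest belonged to replicate 2 of DBA/2J normoxia-hyperoxia, and the next lowest was 12384733. Genes of the mitochondrial genome took between 3.44% and 23.9% of the counts as group means, a share that moved with time, oxygen condition and strain. It was 15.4% in 6 h controls, 6.82% in 24 h controls, 23.9% under normoxia and 14.1% under normoxia-hyperoxia in C57BL/6J, and 8.16%, 3.52%, 12.3% and 13.7% in DBA/2J. The strains overlapped in it under normoxia-hyperoxia and in none of the other 3 conditions, and the share was not a term in any fit. Defining markers of kidney were present in every group, and none of the 8 proximal tubule markers was at 0 in any group. Markers of fat (summed level 0 to 0.275 CPM, counts scaled to a common library size) and urothelium (0.291 to 3.61) were close to 0, and those of adrenal cortex summed to 1.10 to 24.4. In whole slices, fewer cells of a type and less RNA per cell cannot be told apart. The labels do not say whether replicates came from separate mice, so p-values measure the spread between these libraries. The titles place the oxygen conditions in another section of the study than the controls, and a difference between those sections cannot be told apart from the oxygen condition.

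Levels are given in CPM after TMM scaling, which corrects library totals for differences in composition. Where values of both strains stand in a pair, C57BL/6J comes first, and libraries are in the order of their replicate numbers. Where levels of different genes are set side by side they are divided by exon length. By that measure Pth1r was the highest of the 6 genes in 14 of the 16 groups, at 292 CPM per kb in DBA/2J normoxia, and Kl was the highest in both normoxia-hyperoxia groups. Cyp27b1 was the lowest in all groups except the 24 h control and drug groups, where Cyp24a1 was lower still, down to 0.347 CPM per kb in C57BL/6J 24 h controls. Cyp24a1 had the widest range, 101-fold between the highest and the lowest group mean. The ranges of the others were 13.4-fold for Kl, 9.79-fold for Cyp27b1, 5.98-fold for Pth1r, 5.92-fold for Vdr and 4.88-fold for Fgfr1. When the 16 groups were put in order of level, 12 to 14 of the 15 pairs of neighbours had overlapping libraries, depending on the gene. The clear steps were few, among them the 2.26-fold step of Vdr and the 2.87-fold step of Kl between normoxia-hyperoxia in DBA/2J and the highest 24 h control or drug group. Fgfr1 had one of 1.65-fold between DBA/2J cyclosporin A at 6 h and C57BL/6J normoxia.

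**Figure D1:**
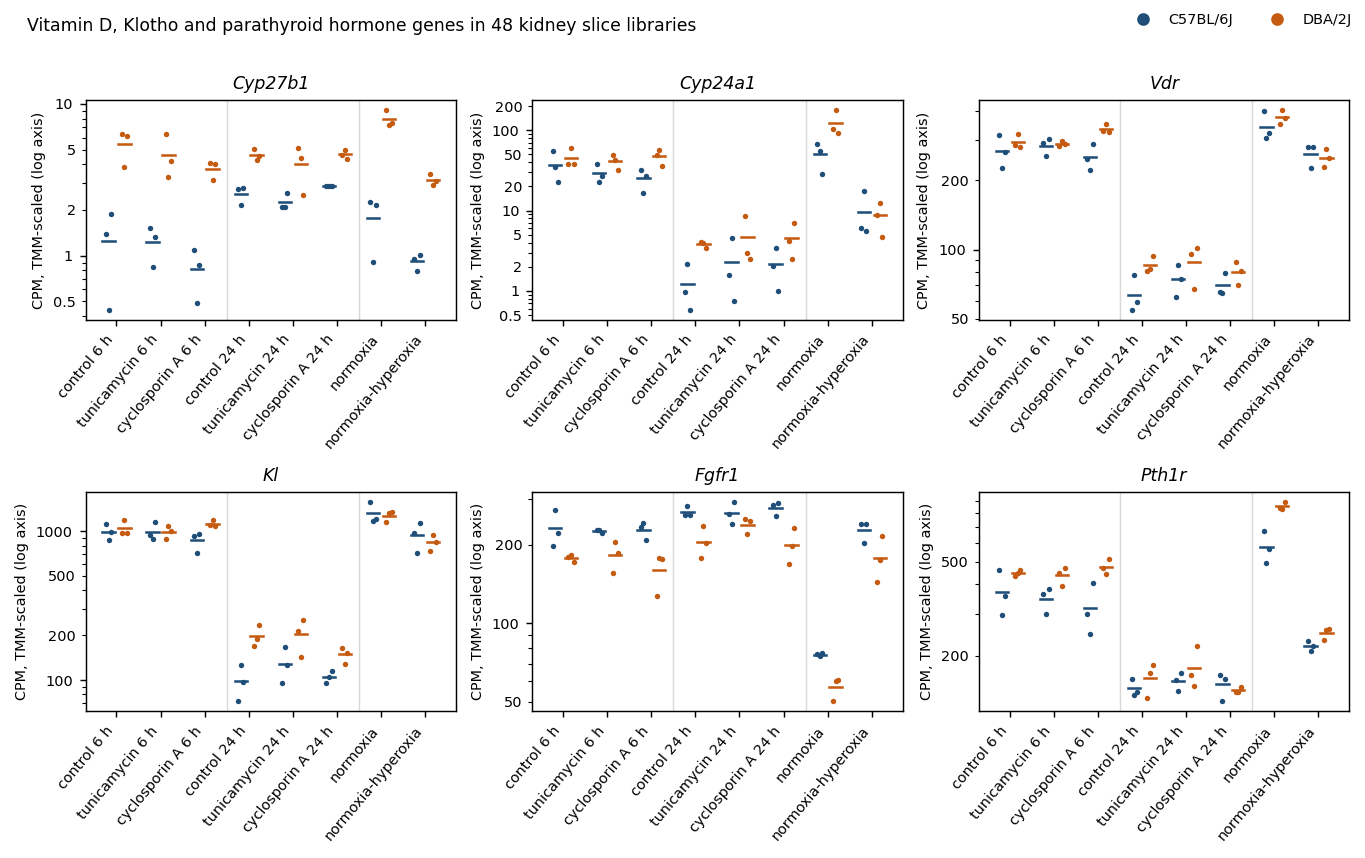
Level of each of the 6 genes in CPM (TMM-scaled, log axis) in the 8 conditions; points are the 3 libraries of a group, short lines group means, blue C57BL/6J and orange DBA/2J. Cyp24a1, Vdr, Kl and Pth1r are low in the 24 h control and drug groups and high in normoxia, Fgfr1 is low in normoxia, and Cyp27b1 is higher in DBA/2J.

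Cyp27b1, the activating enzyme, was scarce in every library, and DBA/2J slices held more of it than C57BL/6J slices. C57BL/6J 6 h controls held 1.39, 0.44 and 1.89 CPM, from 7 to 34 reads per library, and 24 h controls 2.74, 2.14 and 2.78 CPM. DBA/2J controls held 6.38, 3.86 and 6.19 CPM at 6 h and 5.04, 4.24 and 4.54 CPM at 24 h. At both times every DBA/2J library was above every C57BL/6J library. Under normoxia the level was 2.25, 0.905 and 2.17 CPM in C57BL/6J and 9.09, 7.21 and 7.51 CPM in DBA/2J, the latter above all other libraries of the study. Under normoxia-hyperoxia it was 0.946, 0.786 and 1.01 CPM and 3.46, 2.94 and 3.09 CPM. Each strain's normoxia-hyperoxia libraries lay below all of its 24 h controls, and over both strains the level was 2.02-fold lower (log2 fold change -1.01, SE 0.16, adjusted p = 3.92e-05). Against normoxia it was 2.16-fold lower (log2 fold change -1.11, SE 0.2, adjusted p = 0.000132), with the C57BL/6J ranges overlapping. Between 24 h and 6 h controls the change over both strains did not pass the test (log2 fold change 0.40, SE 0.23, adjusted p = 0.139, edgeR quasi-likelihood test), nor did normoxia against 24 h controls (log2 fold change 0.12, SE 0.18, adjusted p = 0.558) or against 6 h controls (log2 fold change 0.47, SE 0.27, adjusted p = 0.139). The first of these passed with total-count scaling (adjusted p = 0.0304) and without replicate 3 of the C57BL/6J 6 h controls (adjusted p = 0.0383). The last passed with no low-count filter (log2 fold change 0.495, adjusted p = 0.014), without that library (adjusted p = 0.0406) and without replicate 2 of C57BL/6J normoxia (adjusted p = 0.0376). It also passed with a replicate block, although the labels do not say that a replicate number marks a shared mouse.

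In the fit of normoxia and 24 h controls the strains differed in their Cyp27b1 response. The estimate was below 0 in C57BL/6J (log2 fold change -0.53, SE 0.27), where normoxia and control libraries overlapped. It was above 0 in DBA/2J (log2 fold change 0.76, SE 0.23), where they did not overlap. The difference was 1.29 on the log2 scale (SE 0.35, adjusted p = 0.022). This call was lost in 1 fit of all 48 libraries (1.21, adjusted p = 0.0516) and when 1 library was left out in 5 cases: replicates 1 and 3 of the C57BL/6J 24 h controls, replicates 2 and 3 of the DBA/2J 24 h controls, and replicate 1 of DBA/2J normoxia, where the adjusted p lay between 0.0506 and 0.0785 and the difference between 1.11 and 1.24.

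Cyp24a1, the catabolic enzyme, moved most of the 6 genes. In 6 h controls it stood at 54.7, 34.8 and 22.9 CPM in C57BL/6J and 37.9, 60 and 37.6 CPM in DBA/2J. In 24 h controls it stood at 0.975, 2.14 and 0.584 CPM and 4.13, 3.97 and 3.4 CPM, the lowest of these from only 8 reads. No 24 h library came near the 6 h range, and the level was 17.9-fold lower at 24 h (log2 fold change -4.17, SE 0.28, adjusted p = 9.49e-08). Normoxia libraries held 66.7, 55 and 28.8 CPM in C57BL/6J and 103, 178 and 92.6 CPM in DBA/2J. Although titled 24 h, they lay in or above the range of the 6 h controls. Against 24 h controls Cyp24a1 was 34.2-fold higher (log2 fold change 5.10, SE 0.33, adjusted p = 1.29e-07), and against 6 h controls 1.86-fold higher (log2 fold change 0.89, SE 0.29, adjusted p = 0.0194), a call lost without replicate 2 of the C57BL/6J 6 h controls (adjusted p = 0.0536). Normoxia-hyperoxia libraries held 6.12, 17.5 and 5.5 CPM and 8.79, 12.6 and 4.76 CPM, between the other 2 conditions. They were 4-fold higher than 24 h controls (log2 fold change 2.00, SE 0.39, adjusted p = 0.000679) and 8.69-fold lower than normoxia (log2 fold change -3.12, SE 0.41, adjusted p = 8.37e-05). Replicates agreed less for this gene than for the others: the median coefficient of variation within a group was 40.8%, beside 8.60% to 14% for the other 5 genes. The widest group was C57BL/6J tunicamycin at 24 h, with 1.56, 4.61 and 0.744 CPM. Pfdn4, which shares 83 exon bases with Cyp24a1 on the other strand, held 17.9 and 16.1 CPM in the 24 h controls, above Cyp24a1 itself, and 8.81 and 9.86 CPM under normoxia, and the part of shared reads was not tested.

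Set against each other per kb of exon, the transcript of the breakdown enzyme outweighed that of the activating enzyme in 6 h controls. The ratios were 31.4 ± 24.4 for C57BL/6J and 6.64 ± 3.97 for DBA/2J (SD, n = 3). The C57BL/6J libraries gave 28.4, 57.2 and 8.74, the highest where Cyp27b1 was lowest in that group, at 0.44 CPM. In 24 h controls the ratio fell below 1 in all 6 libraries, at 0.378 ± 0.304 and 0.604 ± 0.0684 (SD, n = 3). Normoxia gave ratios of 25.0 ± 17.4 and 11.6 ± 5.36, normoxia-hyperoxia ratios of 8.24 ± 6.83 and 2.01 ± 1.00 (SD, n = 3). All 12 libraries of the oxygen conditions had a ratio above 1, the lowest being 1.11. The drug groups kept to the level of their time point, 5.57 to 24.7 at 6 h and 0.209 to 1.60 at 24 h.

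**Figure D2:**
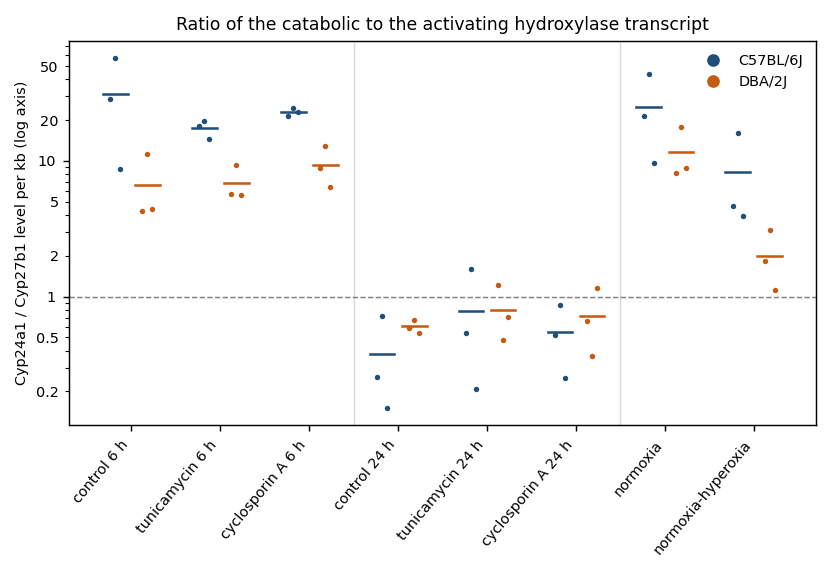
Ratio of Cyp24a1 to Cyp27b1 level per kb of exon (log axis) in each library; short lines are group means, blue C57BL/6J, orange DBA/2J, and the dashed line marks equal levels. The ratio lies below 1 in all 24 h control libraries and above 1 in all 6 h, normoxia and normoxia-hyperoxia libraries.

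Vdr, the hormone's nuclear receptor, had close replicates and fell in culture. It was at 316, 226 and 266 CPM in C57BL/6J 6 h controls and 286, 318 and 281 CPM in those of DBA/2J. The 24 h controls held 54.7, 77.5 and 58.9 CPM and 80.8, 82.2 and 93.5 CPM, all far below the 6 h libraries. That made Vdr 3.77-fold lower at 24 h (log2 fold change -1.91, SE 0.1, adjusted p = 7.63e-10). Under normoxia the libraries held 401, 306 and 322 CPM and 351, 404 and 375 CPM, and under normoxia-hyperoxia 279, 227 and 278 CPM and 229.7, 274 and 251 CPM. Both conditions lay wholly above the 24 h controls of their strain, normoxia 4.79-fold higher (log2 fold change 2.26, SE 0.095, adjusted p = 9.81e-12) and normoxia-hyperoxia 3.45-fold higher (log2 fold change 1.79, SE 0.096, adjusted p = 1.1e-09). Normoxia-hyperoxia was 1.37-fold lower than normoxia with no overlap in either strain (log2 fold change -0.46, SE 0.088, adjusted p = 0.000242). Normoxia exceeded 6 h controls by a small margin, with ranges that overlapped in C57BL/6J but not in DBA/2J (log2 fold change 0.30, SE 0.091, adjusted p = 0.00855).

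Kl, which encodes alpha-Klotho, was highest under normoxia and fell most steeply in culture after Cyp24a1. In 6 h controls it reached 1116, 877 and 981 CPM in C57BL/6J and 972, 1188 and 968 CPM in DBA/2J. By 24 h the controls were at 72.1, 125 and 97.5 CPM and 169, 188 and 233 CPM, and here the strains no longer overlapped. The fall between the 2 times was 7.22-fold over both strains (log2 fold change -2.85, SE 0.14, adjusted p = 7.39e-10). Normoxia libraries were at 1579, 1170.0 and 1204 CPM and 1150.0, 1335 and 1338 CPM, and normoxia-hyperoxia libraries at 976, 710.2 and 1127 CPM and 732, 947 and 850.3 CPM. Against 24 h controls Kl was 9.17-fold higher under normoxia (log2 fold change 3.20, SE 0.14, adjusted p = 2.43e-10) and 6.36-fold higher under normoxia-hyperoxia (log2 fold change 2.67, SE 0.16, adjusted p = 2.76e-08), again with no overlap. It was 1.42-fold lower under normoxia-hyperoxia than under normoxia (log2 fold change -0.51, SE 0.12, adjusted p = 0.00133) and 1.23-fold higher under normoxia than in 6 h controls (log2 fold change 0.30, SE 0.099, adjusted p = 0.015). The rise under normoxia was larger in C57BL/6J (log2 fold change 3.72, SE 0.21) than in DBA/2J (log2 fold change 2.67, SE 0.20), a difference of -1.05 (SE 0.27, adjusted p = 0.0196) that was lost without replicate 1 of DBA/2J normoxia (adjusted p = 0.0572). Under normoxia itself the strains overlapped, and the strain gap lay in the 24 h controls.

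Fgfr1, a receptor tyrosine kinase found in many cell types, was the only one of the 6 genes that fell under normoxia against both sets of controls. Its 6 h controls held 198, 272 and 221 CPM in C57BL/6J and 179.8, 182 and 171 CPM in DBA/2J, and its 24 h controls 259, 280.1 and 259.5 CPM and 178, 236 and 203 CPM. These ranges overlapped in both strains, and the rise of 1.17-fold (log2 fold change 0.23, SE 0.084, adjusted p = 0.025) missed the threshold without any 1 of 5 libraries, with adjusted p from 0.054 to 0.071: replicates 1 and 3 of C57BL/6J and 3 of DBA/2J at 6 h, and replicate 2 of either strain at 24 h. Normoxia libraries held 76, 74.7 and 76.8 CPM and 50.3, 59.9 and 60.3 CPM, below every other library of the study. That was 3.62-fold lower than 24 h controls (log2 fold change -1.86, SE 0.072, adjusted p = 1.14e-12) and 3.19-fold lower than 6 h controls (log2 fold change -1.67, SE 0.082, adjusted p = 2.6e-10). Normoxia-hyperoxia libraries were back at 239.6, 203 and 240.0 CPM and 144, 175 and 215 CPM, 3.13-fold higher than normoxia (log2 fold change 1.65, SE 0.088, adjusted p = 1.64e-10). Against 24 h controls they were 1.17-fold lower (log2 fold change -0.23, SE 0.092, adjusted p = 0.0414), a call that ended with DESeq2 (adjusted p = 0.0686), with RLE factors (0.0628) and without any 1 of 5 libraries (0.0644 to 0.1): replicate 2 of both 24 h control groups and of C57BL/6J normoxia-hyperoxia, and replicates 1 and 2 of DBA/2J normoxia-hyperoxia. Markers of stroma and smooth muscle summed to 363 to 991 CPM in 6 h controls, 267 to 704 in 24 h controls, 128 to 359 under normoxia and 271 to 386 under normoxia-hyperoxia. Those of podocytes summed to 1620 to 2560, 662 to 1530, 573 to 1290 and 1200 to 2440 CPM in the same order, and those of endothelium to 902 to 1890, 536 to 1250, 447 to 1150 and 1220 to 1890 CPM. All 5 podocyte, 5 endothelial and 6 stroma and smooth muscle markers were lower under normoxia than in 6 h controls (32.9% of all genes). Against 24 h controls 4, 2 and 3 of them were lower and 0, 2 and 0 higher (39.7% and 42.4% of all genes), and from normoxia to normoxia-hyperoxia 5, 5 and 4 were higher and 0 lower (37% and 36.5%). Their part in the Fgfr1 values was not tested.

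Pth1r, the parathyroid hormone receptor, also fell with time and was highest under normoxia, and its normoxia-hyperoxia level lay between those of the 24 h controls and normoxia. The 6 h controls held 458, 297 and 358 CPM in C57BL/6J and 433, 449 and 462 CPM in DBA/2J, and the 24 h controls 159.6, 136 and 141 CPM and 133, 169 and 183 CPM. The level at 24 h was 2.63-fold lower with no overlap (log2 fold change -1.39, SE 0.1, adjusted p = 1.87e-08). Normoxia gave 674, 493 and 564 CPM and 841, 829.9 and 895 CPM, above all controls and, in DBA/2J, above every other library. This was 4.5-fold higher than 24 h controls (log2 fold change 2.17, SE 0.091, adjusted p = 3.49e-12) and 1.66-fold higher than 6 h controls (log2 fold change 0.73, SE 0.1, adjusted p = 1.48e-05). Normoxia-hyperoxia gave 230.3, 209.5 and 219 CPM and 232, 257 and 259.7 CPM, which is 2.94-fold lower than normoxia (log2 fold change -1.55, SE 0.081, adjusted p = 1.25e-10) and 1.52-fold higher than 24 h controls (log2 fold change 0.60, SE 0.077, adjusted p = 5.88e-06). Myl3, which overlaps 95 of its exon bases, held at most 35 reads in any library.

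Neither drug moved any of the 6 genes past the test. At 6 h the libraries given tunicamycin or cyclosporin A held 222 to 352 CPM of Vdr, 713 to 1191 of Kl, 127 to 243 of Fgfr1 and 246 to 512 of Pth1r. At 24 h the ranges were 62.5 to 102, 94.9 to 255, 168 to 292 and 129 to 219 CPM in the same order. For Cyp24a1 they were 16.6 to 56.4 CPM at 6 h and 0.744 to 8.63 CPM at 24 h, and for Cyp27b1 0.487 to 1.52 CPM in C57BL/6J and 3.14 to 6.32 CPM in DBA/2J at 6 h, with 2.09 to 2.89 CPM and 2.52 to 5.15 CPM at 24 h, where the strains overlapped. Within a strain the 3 libraries of a drug overlapped their controls except in 3 cases, none of which passed the test. Vdr in DBA/2J under cyclosporin A at 6 h held 329, 352 and 324 CPM, above its controls. Kl in DBA/2J under cyclosporin A at 24 h held 165, 129 and 152 CPM, below its controls, and Cyp27b1 in C57BL/6J under cyclosporin A at 24 h held 2.87, 2.86 and 2.89 CPM, just above its controls. With edgeR, 0 of the 6 genes changed over both strains under tunicamycin at 6 h (background: 0% of all genes tested), cyclosporin A at 6 h (0%), tunicamycin at 24 h (1.38%) and cyclosporin A at 24 h (0%). At an unadjusted p under 0.05 the count was also 0 in each, and so it was with DESeq2. The interaction of strain and drug likewise called 0 of 6 in all 4 comparisons with both tools, beside 0% of all genes in each, and none reached an unadjusted p of 0.05.

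How much of a drug effect these data leave room for differs by gene. Vdr under tunicamycin at 6 h had a log2 fold change of 0.016 with a 95% interval from -0.16 to 0.19, and Fgfr1 one of -0.0069 with an interval from -0.20 to 0.19. The interval for Cyp24a1 under tunicamycin at 24 h ran from -0.47 to 1.65 around 0.59, an interval that includes a 2-fold rise. Cyp27b1 under cyclosporin A at 6 h had the lowest unadjusted p of the drug comparisons (0.0545), with a log2 fold change of -0.61 and an interval from -1.23 to 0.013.

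**Figure D3:**
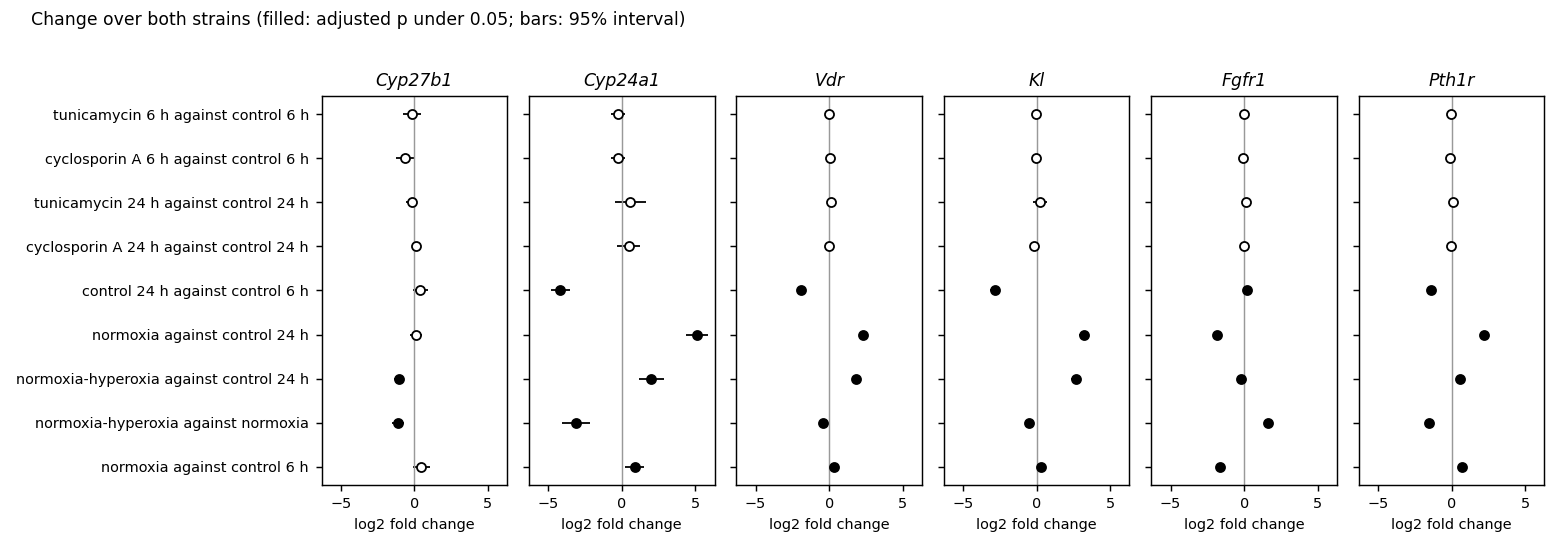
Change of each gene over both strains in the 9 comparisons of conditions, as log2 fold change with its 95% interval; filled points passed the test (adjusted p under 0.05) and open points did not. All 24 points of the 4 drug comparisons are open, and Cyp24a1 has the farthest points, -4.17 with time in culture and 5.10 under normoxia.

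Time in culture and the oxygen conditions moved most genes of the slices, and the counts of the 6 genes are to be read against that. Between 24 h and 6 h controls, 5 of the 6 passed the test, where 72% of all genes did. Fgfr1 was higher (34.7% of all genes were) and Cyp24a1, Vdr, Kl and Pth1r were lower (37.4%). For normoxia against 24 h controls 5 of 6 passed, beside 82% of all genes. Cyp24a1, Vdr, Kl and Pth1r were higher (background 42.4%) and Fgfr1 was lower (39.7%). Normoxia-hyperoxia against 24 h controls gave 6 of 6, beside 68.2%, with the same 4 genes higher (34.1%) and with Cyp27b1 and Fgfr1 lower (34.1%). Against normoxia, normoxia-hyperoxia also gave 6 of 6, beside 73.5%, with Fgfr1 higher (37%) and the other 5 lower (36.5%). Normoxia against 6 h controls gave 5 of 6, beside 65.8%, with Cyp24a1, Vdr, Kl and Pth1r higher (32.9%) and Fgfr1 lower (32.9%). The median log2 fold change of the 6 genes was -1.65 with time, 2.21 under normoxia and 1.19 under normoxia-hyperoxia against 24 h controls, where the medians of all genes were -0.019, 0.053 and 0.0036. These 3 comparisons share the 24 h controls, so their values are not independent of one another. Scaling by total counts in place of TMM shifted the median of all genes by 0.19, -0.23 and -0.15 in them.

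The difference between the strains' responses passed the test for 2 of the 6 genes under normoxia against 24 h controls, Cyp27b1 and Kl, beside 17% of all genes. With edgeR it passed for 0 of 6 between 24 h and 6 h controls (background 0.69%), where 3 had an unadjusted p under 0.05, DESeq2 called 1 and edgeR with no low-count filter called 3. It passed for 0 of 6 under normoxia-hyperoxia against 24 h controls (1.43%), where 4 had an unadjusted p under 0.05, DESeq2 called 1 and edgeR with no low-count filter called 3. For normoxia-hyperoxia against normoxia it was 0 of 6 (18.2%), with 1 at an unadjusted p under 0.05, 0 by DESeq2 and 1 with no low-count filter. In the first 2 of these, Kl came closest, with differences of 1.01 (SE 0.26, adjusted p = 0.106) and -1.13 (SE 0.31, adjusted p = 0.104), and it was called in both with DESeq2 (adjusted p = 0.0161 and 0.00663).

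Between the strains themselves, Cyp27b1 had the largest fold difference of the 6 genes in 6 h controls, under normoxia and under normoxia-hyperoxia, and Cyp24a1 in 24 h controls. DBA/2J exceeded C57BL/6J 4.18-fold in 6 h controls (log2 fold change 2.06, SE 0.34, adjusted p = 0.000545), 4.51-fold under normoxia (2.17, SE 0.26, adjusted p = 1.28e-05) and 3.57-fold under normoxia-hyperoxia (1.83, SE 0.305, adjusted p = 0.000461). In 24 h controls it was 1.86-fold higher, with no overlap of libraries, but did not pass the test (0.89, SE 0.31, adjusted p = 0.0545). It did pass there with DESeq2 (adjusted p = 0.0423), with no low-count filter (0.00779), with total-count scaling (0.0485), in 1 fit of all 48 libraries (0.0251) and without replicate 2 of the C57BL/6J 6 h controls (0.0132). Kl was 2.04-fold higher in DBA/2J in 24 h controls alone among the 4 conditions tested (log2 fold change 1.03, SE 0.18, adjusted p = 0.00119). In the same controls Cyp24a1 was 2.97-fold (adjusted p = 0.0356) and Vdr 1.37-fold higher (adjusted p = 0.0307), calls that leaving out single libraries ended, as did 1 fit of all 48 libraries for Cyp24a1 (adjusted p = 0.104). For Cyp24a1 the libraries were replicate 2 of the C57BL/6J 6 h controls and any 24 h control except replicate 2 of C57BL/6J (adjusted p 0.0644 to 0.125). For Vdr they were replicate 3 of the C57BL/6J 6 h controls and any 24 h control except replicate 2 of either strain (0.0594 to 0.146).

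Fgfr1 was lower in DBA/2J in each of the 4 conditions, by 0.43 on the log2 scale in 6 h controls (adjusted p = 0.0159) and by 0.40 under normoxia (adjusted p = 0.0152) where it passed the test. It gave -0.34 in 24 h controls (adjusted p = 0.0504; 0.0352 with DESeq2 and 0.00552 with no low-count filter) and -0.32 under normoxia-hyperoxia (adjusted p = 0.0644; 0.00751 with no low-count filter). The 6 h call was lost with total-count scaling (adjusted p = 0.0796) and without replicate 2 of C57BL/6J (adjusted p = 0.0837) or replicate 3 of DBA/2J (0.059), and the normoxia call without replicate 1 of DBA/2J (0.0773). Markers of other cell types were also lower in DBA/2J: 5 of 5 endothelial, 4 of 5 podocyte and 1 of 6 stroma and smooth muscle markers in 6 h controls (12.7% of all genes), and 4 of 5, 4 of 5 and 4 of 6 under normoxia (18.5%). In 24 h controls these counts were 2, 4 and 2 (8.27%), and under normoxia-hyperoxia 0, 0 and 1 (11.3%), with none higher among the 4 conditions. Markers of tubule segments beyond the proximal one were lower too. Under normoxia loop of Henle markers summed to a mean of 13000 CPM in C57BL/6J and 3730 in DBA/2J. Distal markers summed to 7910 and 3380, and collecting duct markers to 956 and 508. In 6 h controls the means were 9710 and 5150, 10500 and 6120, and 813 and 628 in the same order. In 24 h controls the distal mean was not lower in DBA/2J, at 1980 and 2080. The part of these markers in the Fgfr1 difference was not tested. Pth1r was 1.5-fold higher in DBA/2J under normoxia (log2 fold change 0.59, SE 0.11, adjusted p = 0.000625). In all, 2 of 6 genes differed by strain in 6 h controls (background 26.2% of all genes), 3 of 6 in 24 h controls (22.2%; 5 of 6 with DESeq2 or with no low-count filter, and 1 to 4 without single libraries), 3 of 6 under normoxia (46.8%) and 1 of 6 under normoxia-hyperoxia (25.7%). The counts of the other conditions also moved with the processing, as given in the closing section. Proximal tubule markers moved with the strain too: their summed level was 3180 to 5950 CPM in C57BL/6J and 8310 to 9680 in DBA/2J at 6 h, and 438 to 666 against 1350 to 2870 at 24 h. Under normoxia it was 7000 to 9600 against 17900 to 18800, and under normoxia-hyperoxia 286 to 424 against 882 to 1280. Of the 8 markers, 4 were higher in DBA/2J in 6 h controls and 7 in each of the other 3 conditions, and their part in the strain differences was not tested.

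The summed level of the 8 proximal tubule markers was 3180 to 9680 CPM in 6 h controls, 438 to 2870 in 24 h controls, 7000 to 18800 under normoxia and 286 to 1280 under normoxia-hyperoxia. That of the 6 markers of the distal convoluted and connecting tubule was 5570 to 11500, 1360 to 2540, 2640 to 9260 and 7220 to 15700 in the same order. Against 24 h controls, 5 of 8 proximal markers were lower and 0 higher under normoxia-hyperoxia (median log2 fold change -1.18), while 6 of 6 distal ones were higher (median 2.67), as were 5 of 5 of the loop of Henle (median 2.03), where 34.1% of all genes were lower and 34.1% higher. Kl, Vdr, Cyp24a1 and Pth1r, at 2.67, 1.79, 2.00 and 0.60, rose in the same comparison, and Cyp27b1 fell by 1.01. Under normoxia all 8 proximal markers (median 3.61) and all 6 distal ones (median 1.28) were higher than in 24 h controls, as were 42.4% of all genes, beside Kl at 3.20 and Pth1r at 2.17. What share of each gene's change went with these markers was not tested.

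**Figure D4:**
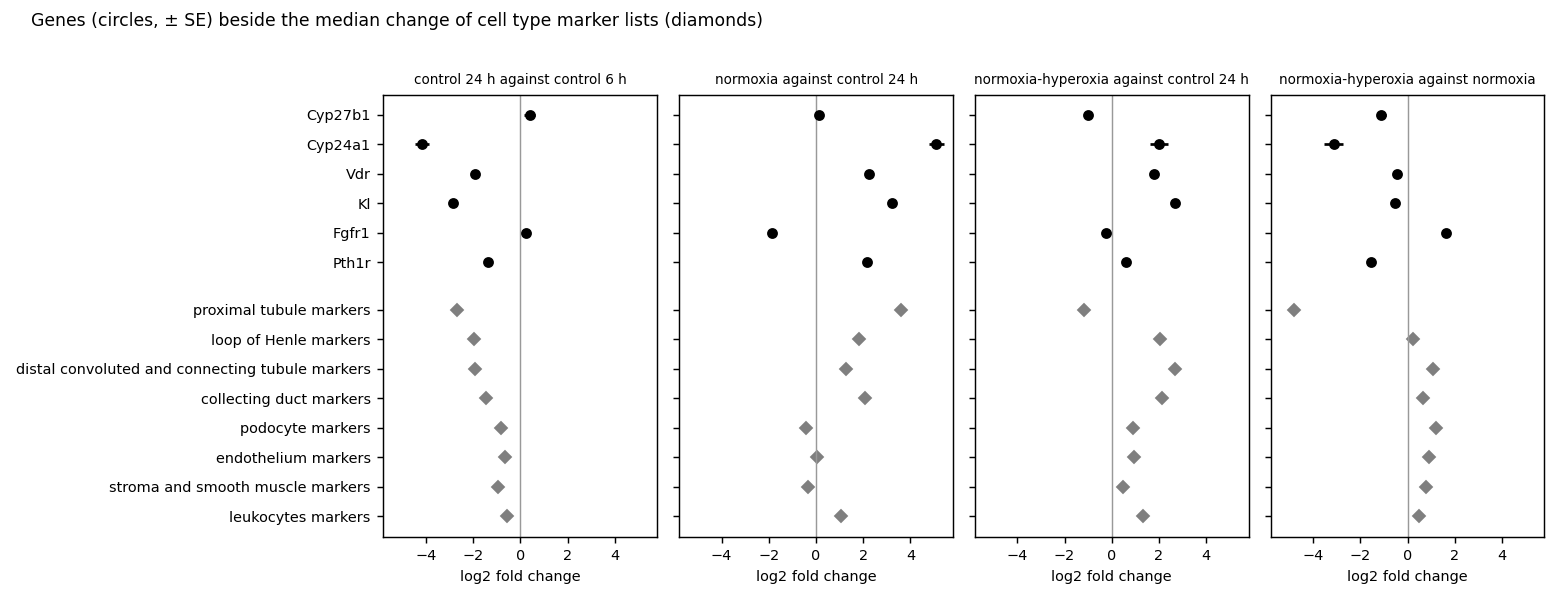
Log2 fold change of the 6 genes (circles, ± SE) and the median log2 fold change of 8 lists of cell type markers (grey diamonds) in 4 comparisons over both strains. Proximal tubule markers lie at 3.61 under normoxia and -1.18 under normoxia-hyperoxia against 24 h controls, while distal tubule markers and Kl are to the right of 0 in both.

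Of the other genes of vitamin D supply and its receptor's partners, 15 were tested with time, of which 2 were higher and 10 lower (34.7% and 37.4% of all genes). Of 16 tested under normoxia against 24 h controls 11 were higher and 2 lower (42.4% and 39.7%), and of 14 tested under normoxia-hyperoxia against 24 h controls 4 were higher and 6 lower (34.1% and 34.1%). Lrp2 and Cubn, which encode the receptors megalin and cubilin that take up filtered vitamin D with its binding protein, rose by log2 fold changes of 3.69 (SE 0.16) and 3.98 (SE 0.16) under normoxia. The level of Lrp2 was 73.4 ± 5.15 CPM in 24 h controls and 914 ± 173 under normoxia for C57BL/6J, and 165 ± 55.7 and 2280 ± 99.6 for DBA/2J (SD, n = 3). From normoxia to normoxia-hyperoxia they fell by 4.54 (SE 0.15) and 4.68 (SE 0.16). Rxra, the receptor that pairs with the vitamin D receptor on DNA, was higher under normoxia than in 6 h controls by 0.82 (SE 0.077). Pdia3, a protein disulfide isomerase that has also been described as a membrane binding protein for the hormone, was the only gene of the 4 pathway lists to change with a drug, up by 0.59 (SE 0.082, adjusted p = 0.00536) under tunicamycin at 24 h.

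Among genes of FGF23 and Klotho signalling, the ligand Fgf23 itself was at or near 0: its count reached at most 26 reads in any library (DBA/2J tunicamycin at 24 h) and was 0 in all 6 normoxia libraries. The receptors Fgfr3 and Fgfr4 went the way opposite to Fgfr1 under normoxia, up by 3.37 (SE 0.12) and 2.89 (SE 0.12) against 24 h controls, and then fell by 2.19 (SE 0.094) and 2.40 (SE 0.085) to normoxia-hyperoxia. Fgfr3 reached 36.1 ± 0.823 CPM in C57BL/6J and 76.7 ± 6.51 in DBA/2J under normoxia (SD, n = 3). Averaged over the strains, Fgfr2 was lower under normoxia, as Fgfr1 was, by 0.325 (SE 0.072) against 24 h controls and 0.36 (SE 0.064) against 6 h controls. DBA/2J held 41 ± 5.53 CPM in 24 h controls and 25.4 ± 2.12 under normoxia, and C57BL/6J 49.3 ± 2.39 and 52.5 ± 3.82 CPM (SD, n = 3). Under normoxia-hyperoxia Fgfr2 was 0.77 (SE 0.065) higher than in 24 h controls. Egr1, an immediate target of the ERK kinases that growth factor receptors activate, fell under normoxia by 3.77 (SE 0.30) against 24 h controls and was 5.76 (SE 0.33) higher under normoxia-hyperoxia than under normoxia. Spry2 and Spry4, which restrain the same kinases, were lower under normoxia by 2.47 (SE 0.066) against 24 h controls and 2.44 (SE 0.13) against 6 h controls, respectively. In the whole list, 4 of 17 genes tested were higher and 12 lower under normoxia against 24 h controls (42.4% and 39.7% of all genes). In normoxia-hyperoxia against normoxia 9 were higher and 6 lower (37% and 36.5%), and with time 8 were higher and 5 lower (34.7% and 37.4%).

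Of 19 parathyroid hormone signalling genes tested, 4 were higher and 12 lower under normoxia against 24 h controls (42.4% and 39.7% of all genes). From normoxia to normoxia-hyperoxia 13 were higher and 3 lower (37% and 36.5% of all genes). Sik1, a kinase gene that cyclic AMP induces, was lower under normoxia by 1.81 (SE 0.066) and then higher by 1.88 (SE 0.081). Adcy6, which encodes an enzyme that makes cyclic AMP, was 1.04 (SE 0.061) higher under normoxia and 1.10 (SE 0.064) higher under normoxia-hyperoxia than in 24 h controls. Prkar2a, a regulatory subunit of protein kinase A, rose with time by 1.34 (SE 0.079) and was lower under normoxia by 1.63 (SE 0.059).

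Of 18 phosphate and calcium transport genes tested, 17 passed the test with time, 2 higher and 15 lower, where 72% of all genes passed, 34.7% higher and 37.4% lower. Under normoxia against 24 h controls all 18 passed, 15 higher and 3 lower, where 82% of all genes did, 42.4% higher and 39.7% lower. Under normoxia-hyperoxia against 24 h controls 12 were higher and 5 lower (34.1% and 34.1% of all genes). Slc34a1, the main renal phosphate transporter, held 2460 ± 808 CPM in C57BL/6J 6 h controls, 266 ± 72.4 at 24 h, 4070 ± 1120 under normoxia and 88.2 ± 19.1 under normoxia-hyperoxia (SD, n = 3). In DBA/2J it held 3360 ± 339, 718 ± 266, 7620 ± 466 and 361 ± 76.6 CPM (SD, n = 3). From normoxia to normoxia-hyperoxia it fell by 4.93 (SE 0.17), and Slc34a3 by 4.13 (SE 0.23). Trpv5, the apical calcium channel of the distal tubule, was 1.97 (SE 0.28) higher in the same comparison, and 2.43 (SE 0.25) higher than in 24 h controls. Calb1 and S100g, which encode calcium-binding proteins of the distal tubule, were 1.66 (SE 0.22) and 1.75 (SE 0.23) higher under normoxia-hyperoxia than in 24 h controls. Calb1, Slc8a1 and Trpm6 of this list also stand among the distal tubule markers.

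Across the 16 group means of log2 CPM, Vdr and Kl ran nearly together (r = 0.996), and Cyp24a1 ran with Pth1r (r = 0.964) and Vdr (r = 0.934). Fgfr1 ran against all of the other 5, from r = -0.78 with Pth1r to -0.37 with Cyp27b1. The level of Cyp27b1 had r between -0.37 and 0.097 with the other genes. These points share libraries and scaling and fall into few levels, so the values describe the pattern only. Among 12327 genes, those most like each of the 6 by this measure were Gstt1 (r = 0.997), Arhgap24 and Pcca for Vdr, and Pcca (r = 0.996), Gstt1 and Aldh1l1 for Kl. For Pth1r they were Btd (r = 0.996), Slc22a5 and Atraid, for Cyp24a1 Lamtor4 (r = 0.995), Nepn and Aldh2, and for Fgfr1 Rusc2 (r = 0.992), Apold1 and Csrp1. Cyp27b1 had lower matches, Numa1 (r = 0.963), Ccdc93 and Cptp. Some of these places depended on scaling: with total counts the nearest to Cyp27b1 were Vps51, Ngrn and Ccdc93, and Numa1 was at r = 0.891. Cptp for Cyp27b1, Lamtor4 for Cyp24a1, Gstt1 and Aldh1l1 for Kl, and Apold1 and Csrp1 for Fgfr1 also left the nearest 3, while those of Vdr and Pth1r did not change.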

How the data were processed

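RNA was measured by stranded mRNA sequencing, per the labels' protocols, in 48 libraries of mouse kidney slices. The deposited values are raw read counts per gene. The submitters' processing notes name bcl2fastq 2.20.0, FastQC 0.11.8, STAR 2.7.9a, featureCounts 1.5.1 and the build GRCm38. The strand setting, annotation release and filters are not given in the sources used here.

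Groups came from the labels. Each comparison was fitted to the counts of its own 12 libraries in 4 groups with edgeR 4.0.16 in R 4.3.3 (TMM factors, filterByExpr, robust quasi-likelihood F test), and p-values were adjusted by Benjamini-Hochberg over all genes tested, with a threshold of 0.05. The effect over both strains is the mean of the 2 strains' effects, and the interaction is DBA/2J minus C57BL/6J. Levels were scaled over all 48 libraries. Symbols were matched for 55141 of 55487 identifiers, and 74 of 75 pathway list genes had a row. Total counts were 5619309 to 25137581 per library, and how far depth accounts for the spread between replicates was not tested. The fitting was tested on simulated data, where the share of false calls came out somewhat above the threshold of 0.05. The simulation changed few genes, as many up as down and alike in both strains, with independent libraries. It therefore does not measure the error where most genes changed, as with time and oxygen.

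The genes and lists were chosen with earlier results of these data known. Besides the 6 genes, up to 2 risers and 2 fallers per pathway list and comparison, with mean log2 CPM of at least 1, and a fixed set of 10 genes could be named. Likeness is Pearson's r over group means of log2 CPM with a prior count of 2. Alternatives were RLE factors, no low-count filter, DESeq2 1.42.0, 1 fit of all 48 libraries, a replicate block, leaving out each library and, chosen after seeing the data, total-count scaling. Promoter windows are from RefSeq on GRCm38.p6.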

Additional observations from a re-analysis of the deposited data

Results flagged for a closer look

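For 2 of the 6 genes the response to normoxia, against 24 h controls, differed between the strains by the interaction test of edgeR, where 17% of all genes did. Without single libraries the count ran from 0 to 3, and the Cyp27b1 call was lost in 5 cases and the Kl call in 1. In 1 fit of all 48 libraries the Cyp27b1 call was lost as well (adjusted p = 0.0516). Cyp27b1, the activating enzyme, had a difference of 1.29 on the log2 scale (DBA/2J minus C57BL/6J, adjusted p = 0.022). The estimates were -0.53 in C57BL/6J, where normoxia and control libraries overlapped, and 0.76 in DBA/2J, where they did not. Kl, the co-receptor, had a difference of -1.05 (adjusted p = 0.0196), with 3.72 in C57BL/6J and 2.67 in DBA/2J. Distal tubule markers moved with the Kl difference, 5 of 6 having a lower response in DBA/2J (median -1.50) where 6.88% of all genes did. They were not alone: summed markers of the other tubule lists also had a smaller fold rise under normoxia in DBA/2J. Mean loop of Henle sums in 24 h controls and normoxia were 2980 and 13000 CPM for C57BL/6J, beside 1920 and 3730 for DBA/2J. For collecting duct markers they were 263 and 956, beside 200 and 508, and for proximal tubule markers 588 and 8550, beside 2170 and 18500. The part of these markers in the Kl difference was not tested.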

How the results depend on the processing

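Of 38 called values of single genes, 675 alternatives left 639 called in the same direction and 36 not called, and 0 changed direction. Under scaling by total counts or without mitochondrial genes, 62 of 192 group levels moved by 1 SD or more. Values near 0 changed sign in comparisons that were not called. Fgfr1 under cyclosporin A at 24 h was -0.000238 with RLE factors, -0.000464 with no low-count filter, -0.0041 in 1 fit of all 48 libraries and -0.00107 with DESeq2, and Cyp27b1 under normoxia against 24 h controls was -0.159 with total-count scaling. Leaving out single libraries gave, under tunicamycin at 6 h, -0.35 to 0.0697 for Cyp27b1, -0.0459 to 0.0796 for Vdr, -0.0999 to 0.0076 for Kl, -0.0553 to 0.0578 for Fgfr1 and -0.145 to 0.017 for Pth1r. Under cyclosporin A it gave -0.0246 to 0.0935 for Vdr and -0.191 to 0.00256 for Pth1r at 6 h, and -0.0423 to 0.0934 for Vdr and -0.059 to 0.0579 for Fgfr1 at 24 h.

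Counts of the 6 genes called that moved by more than 1.5 times, or from 0, were those of interactions and of strain, and the cause was not tested. Over all alternatives other counts ran from 4 to 6 with time, 5 to 6 for normoxia-hyperoxia against 24 h controls, 4 to 6 for normoxia against 6 h controls and 2 to 4 for strain under normoxia. Those of normoxia against 24 h controls (5), normoxia-hyperoxia against normoxia (6) and the drugs (0, interactions included) did not move. For the interaction between 24 h and 6 h controls (0 called), no low-count filter gave 3, DESeq2 1 and leaving out single libraries 0 to 1. For the interaction under normoxia against 24 h controls (2 called), 1 fit of all libraries gave 1 and leaving out libraries 0 to 3. For that under normoxia-hyperoxia against 24 h controls (0 called), no low-count filter gave 3, 1 fit of all libraries 1, DESeq2 1 and leaving out libraries 0 to 1. For that of normoxia-hyperoxia against normoxia (0 called), no low-count filter gave 1 and leaving out libraries 0 to 1. The strain count went from 2 to 1 in 6 h controls with total-count scaling, where Fgfr1 had an adjusted p of 0.0796, and to 1 to 3 without single libraries. It went from 3 to 5 in 24 h controls with no low-count filter and with DESeq2, and to 1 to 4 without single libraries, and Cyp24a1 was not called there in 1 fit of all libraries (adjusted p = 0.104). Under normoxia-hyperoxia it went from 1 to 2 with no low-count filter and with total-count scaling, and to 1 to 2 without single libraries.

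Whether the replicate numbers pair the libraries was not settled. In none of the 9 comparisons did all 6 pairs of same-numbered libraries correlate above 0.1. With 3 candidates each, 12 of 12 libraries correlated best with their own number for normoxia against 6 h controls. For tunicamycin at 6 h it was 10 of 12. It was 9 for cyclosporin A at 6 h, tunicamycin at 24 h and both comparisons of normoxia-hyperoxia, and 4 to 6 in the others. The main fits hold no term for the replicate number. Cyp27b1 was lowest in replicate 2 in 14 of 16 groups, Cyp24a1 in replicate 3 in 13 and Pth1r in replicate 2 in 12. With a replicate block, the interaction counts of normoxia-hyperoxia against 24 h controls and against normoxia each went from 0 to 1, and Cyp27b1 under normoxia against 6 h controls was called (0.496, adjusted p = 0.0131), as it was with no low-count filter (0.495, adjusted p = 0.014). Cyp27b1 had 7 to 192 reads per library, and counting error is largest where reads are fewest.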
